A study of Mus musculus with 12 samples.

Results

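Gene expression was compared between the epidermis of mice with floxed polarity genes Llgl1 and Llgl2 and a keratinocyte Cre and the epidermis of mice with the Cre alone, with both Trp53 alleles left unfloxed in each group. The comparison was defined by the labels: the 3 libraries named L1L2cKO were set against the 3 named Control, which together make 6 of the 12 libraries sequenced. Control mice carried K14-Cre and no floxed allele by their label. L1L2cKO mice had the genotype K14-Cre/Llgl1/2 flox/flox. The other groups, used below for the shared estimate of spread and for a side-by-side comparison, were p53cKO (K14-Cre/Trp53 +/flox) and L1L2p53cKO, which joined the Llgl1/2 flox/flox genotype with Trp53 +/flox under the same Cre. All were newborns, each library came from the skin epidermis of a separate mouse by the stated design, and all 4 groups carried the Cre transgene. K14-Cre is driven by a keratin promoter of basal keratinocytes, so T cells, Langerhans cells, melanocytes and dermal cells in the same sample are not its intended targets. The labels give no strain, litter, age in hours or number of founder lines, so the floxed alleles and any background that came with them cannot be told apart.

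Lgl proteins are cortical scaffolds that act with Scribble and Dlg at the basolateral side of an epithelial cell, where they oppose the apical complex of Par proteins and atypical protein kinase C. They also bind non-muscle myosin and components of vesicle fusion, and they take part in orienting the mitotic spindle. In the epidermis, basal cells divide on the basement membrane and their daughters move outward through spinous and granular layers, while hair follicles and sebaceous glands form from the same sheet.

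Control libraries held 6738720 to 11739107 counts and L1L2cKO libraries 11681341 to 14509507, and 14582 of the 46078 genes in the table had enough counts to be tested. Levels are given as CPM, that is counts scaled to a common library size, group values as mean ± SD of 3 libraries, and changes as log2 fold changes of L1L2cKO against Control ± SE. A gene was called when its adjusted p in edgeR's quasi-likelihood test was below 0.05. Control 3 stood apart from the other controls: on the first principal component of the 6 libraries, which carried 46.9% of the variance, it lay at -28.8, beside the L1L2cKO libraries (-27.9 to -19.1), against 67.5 and 30.8 for Control 1 and Control 2. By X- and Y-linked transcripts Control held 1 male and 2 females and L1L2cKO 2 males and 1 female. Basal keratins were abundant in every library, with Krt5 between 7395 and 9275 CPM. The endothelial marker Pecam1 had at most 10 counts per library, the muscle marker Acta1 at most 7 and the adipocyte marker Adipoq at most 3.

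The targeted genes differed in direction. Llgl2 was at 109.9, 84.9 and 65.4 CPM in Control and 7.63, 7.73 and 9.69 in L1L2cKO. The groups did not overlap, and the log2 change was -3.38 ± 0.30 (adjusted p = 0.00053). Llgl1 stood at 173, 127 and 115 CPM in Control against 280.1, 218 and 269 in L1L2cKO. All 3 L1L2cKO libraries were above all 3 Control libraries, but the log2 change of 0.89 ± 0.17 was not called (adjusted p = 0.082). Because counts were summed over whole genes, exons between loxP sites cannot be told from the rest, and the level of Llgl1 is no measure of recombination. Trp53, unfloxed in both groups, was at 130.5, 109 and 123 CPM in Control and 120.5, 122 and 112 in L1L2cKO, and the ranges overlapped (log2 change -0.03 ± 0.23, adjusted p = 1).

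Few genes were called, and many of these went from a clear level to almost none or the reverse. Of the 14582 genes tested 33 were called (0.226%), 13 higher (0.0892%) and 20 lower (0.137%), and 25 of the 33 changed by more than 2 on the log2 scale. DESeq2 called 114, all 33 among them. Among the 20 that fell, 12 had a mean below 1 CPM in L1L2cKO, and among the 13 that rose, 6 had a mean below 1 CPM in Control. In all 33 the 2 groups did not overlap, whereas 9.8% of all genes tested had groups that did not overlap. The called genes were also of an unusual kind: 11 of 33 were annotated as pseudogenes (33.3%, against 2.56% of the genes tested), 19 were protein coding, and 3 were a long non-coding, an antisense and a processed transcript. Pseudogenes made up 8 of the 13 genes that rose and 3 of the 20 that fell. Over all genes tested the median log2 change was -0.01 and 48.8% were higher.

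**Figure D1:**
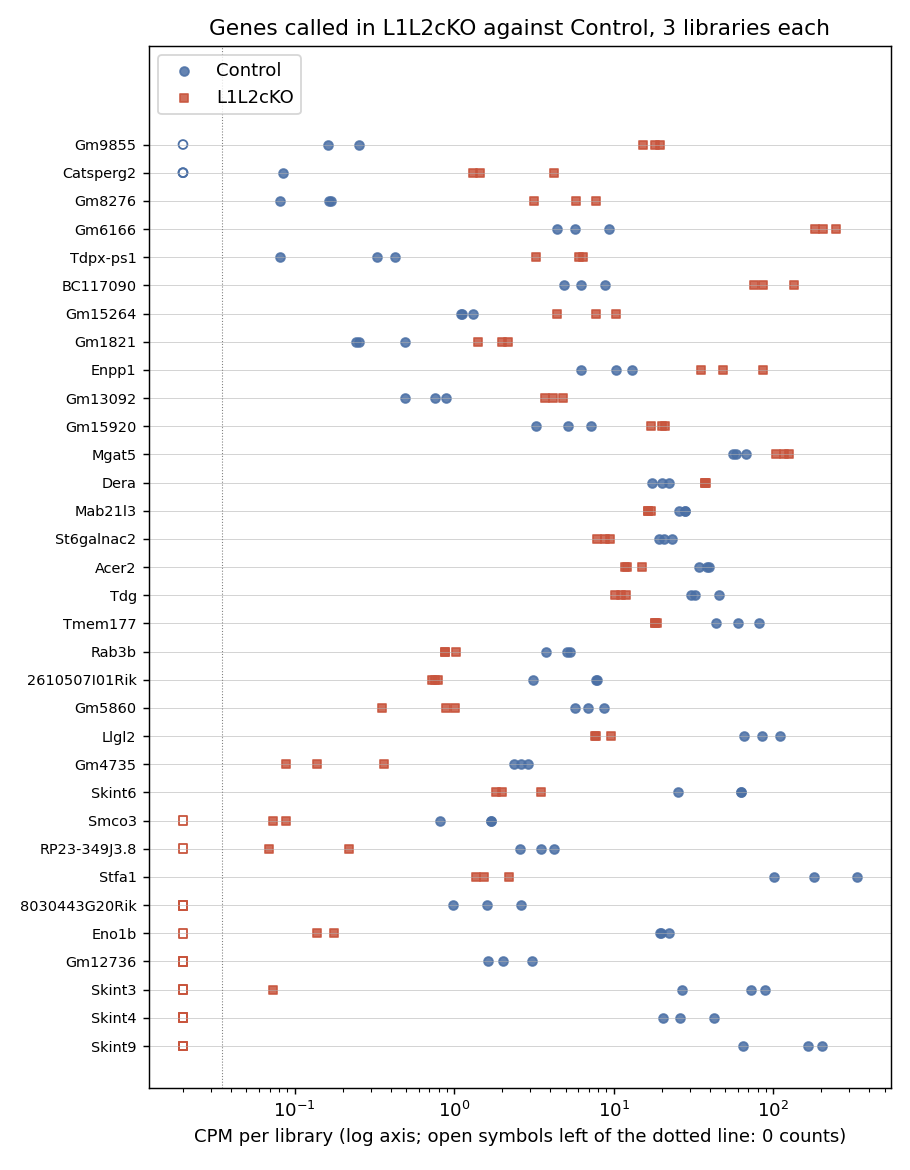
Level of each of the 33 called genes in the 3 Control libraries (blue circles) and the 3 L1L2cKO libraries (red squares), in CPM on a log axis, sorted by fitted log2 fold change. Open symbols to the left of the dotted line are libraries with 0 counts, and the groups do not overlap in any row.

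The largest losses were in the Skint family, a set of immunoglobulin-superfamily genes that are expressed in skin and thymus. Its founding member, Skint1, is known for selecting the dendritic T cells of the mouse epidermis. Of 11 members tested, 4 were called, all lower, where 0.137% of all genes tested were called lower. The family was listed with earlier results of these data known, so the count is no test of it. The 4 lie within a stretch of 1.21 Mb of chromosome 4 (112072016 to 113286973, GRCm38). The bases upstream of 3 of them, Skint3, Skint4 and Skint6, are printed. Skint9, which also fell, was left out of the search for a shared run. The printed bases come from RefSeq's GRCm38.p6 promoter table and cover 250 bases before the annotated start, read in the direction of the gene. For Skint4 they lie before the second of 2 starts listed, which was kept because it gave the longer shared run. Capitals mark the longest run of bases common to the 3.
Skint3, chr4:112231995-112232244, plus strand: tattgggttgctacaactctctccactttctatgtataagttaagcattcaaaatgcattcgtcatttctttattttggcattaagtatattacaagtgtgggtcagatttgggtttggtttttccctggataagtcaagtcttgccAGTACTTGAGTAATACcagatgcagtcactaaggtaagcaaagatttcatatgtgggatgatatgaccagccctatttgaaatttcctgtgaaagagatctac
Skint4, chr4:112081220-112081469, plus strand: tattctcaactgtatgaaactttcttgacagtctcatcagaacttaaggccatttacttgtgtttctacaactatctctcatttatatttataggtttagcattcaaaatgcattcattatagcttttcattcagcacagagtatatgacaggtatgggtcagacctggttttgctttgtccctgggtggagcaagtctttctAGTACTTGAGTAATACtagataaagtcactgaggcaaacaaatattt
Skint6, chr4:113286974-113287223, minus strand: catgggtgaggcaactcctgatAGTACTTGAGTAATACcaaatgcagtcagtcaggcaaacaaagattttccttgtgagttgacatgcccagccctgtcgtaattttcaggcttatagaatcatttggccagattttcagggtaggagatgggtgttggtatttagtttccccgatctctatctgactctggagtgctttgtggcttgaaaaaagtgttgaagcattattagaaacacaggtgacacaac
The run AGTACTTGAGTAATAC is 16 bases long and was chosen because these 3 windows share it. On either strand it occurs in 3 of 32851 upstream windows of the same length (0.00913%), and in 3 of the 12 windows listed for Skint genes, so the called Skint9 does not hold it. It ends 87, 31 and 212 bases before the start of Skint3, Skint4 and Skint6. The run was the longest over chosen genes and a chosen start, so its low share among all windows is no test. The match is a description of the letters, not evidence of a binding site.

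Skint9 was at 65.1, 202 and 165 CPM in the Control libraries and had 0 counts in each L1L2cKO library. With a floor of 3 counts over the group it was at least 2102-fold lower (adjusted p = 0.001). Skint4 went from 20.3, 42.7 and 26.1 CPM to 0 counts in all 3 L1L2cKO libraries, at least 414-fold lower (adjusted p = 0.0013). Both genes were present in every Control library and unseen in every L1L2cKO library at this depth. Skint3, at 26.98, 89.1 and 72.5 CPM in Control, had a single count in L1L2cKO, all of it in L1L2cKO 2, and the ratio of summed counts was 2765 with an exact 95% interval of 496 to 109261 that covers counting error only. Skint6 fell from 25.2, 62.5 and 63.2 CPM to 1.99, 1.82 and 3.52, a log2 change of -4.38 ± 0.44 (adjusted p = 0.001), and was the called member that still had reads in all 3 L1L2cKO libraries. Control 1 had the lowest level of each of the 4 genes among the controls and was still several times above any L1L2cKO library. Skint3, Skint4 and Skint9 share under 1% of their 50-base words with other genes, and Skint6 shares 4.64% of its words with Skint5.

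The remaining Skint genes were not called. Skint1 was at 26.7, 34.6 and 29.6 CPM in Control and 16.3, 15.5 and 18.3 in L1L2cKO, without overlap (log2 change -0.86 ± 0.19, adjusted p = 0.15). Skint7 was lower without overlap as well, at 34.2 ± 12.4 and 18.4 ± 4.81 CPM (adjusted p = 0.6). Unlike Skint4 and Skint9, these neighbours had reads in every L1L2cKO library. Skint8 had means of 14.6 and 8.93 CPM with a log2 change of -0.72, and the log2 changes of Skint10, Skint11, Skint5 and Skint2 were -0.12, -0.53, -0.35 and 0.62, all with overlapping groups. Over the 11 genes the median log2 change was -0.86, a value set by members that were not called.

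In the stefin A cluster of chromosome 16, which encodes small inhibitors of cysteine proteases, 2 neighbours went in opposite directions. Stfa1 was at 101, 180.3 and 335 CPM in Control and 1.37, 1.53 and 2.202 in L1L2cKO (log2 change -6.93 ± 0.52, adjusted p = 0.00024). BC117090, 0.036 Mb away, was at 4.91, 6.29 and 8.87 CPM in Control and 86.8, 75.7 and 135 in L1L2cKO (log2 change 3.86 ± 0.35, adjusted p = 0.00061). Every L1L2cKO library thus had almost no Stfa1 and more BC117090 than any Control library. The cluster consists of near copies: 22.5% of the 50-base words of Stfa1 and 33.7% of those of BC117090 occur in another gene, most of them in BC100530, and how the authors treated reads that match several genes is not given in the sources used here. BC100530 did not pass the test, at 909.5 ± 286 and 1236 ± 329 CPM (log2 change 0.44, adjusted p = 0.86). The sum of the 3 was 1121 ± 406 CPM in Control and 1337 ± 360 in L1L2cKO, with overlap. Stfa2, Stfa3, Csta1, Cstb and Cst6 also overlapped between the groups, with log2 changes of -0.39, -0.11, -0.26, -0.40 and -0.79.

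The gene with the smallest p was Eno1b, a retrotransposed copy of Eno1, the glycolytic enolase. Eno1b was at 22.4, 19.9 and 19.5 CPM in Control and 0.137, 0 and 0.176 in L1L2cKO (log2 change -7.52 ± 0.52, adjusted p = 0.00016). The groups were tight and far apart. A pair of enolase pseudogenes, chosen for mention after their values were seen, fell with it, with log2 changes of -3.64 for Gm4735 and -4.94 for RP23-349J3.8 (adjusted p = 0.023 and 0.0031). Of the words of Gm4735, 91.8% also occur in Eno1b, so these pseudogene counts and those of Eno1b are not independent. Eno1 itself, which holds 76.4% of the words of Eno1b, was at 209.9 ± 6.64 CPM in Control and 205 ± 37.3 in L1L2cKO (log2 change -0.04 ± 0.15, adjusted p = 1). The 4 together summed to 237 ± 8.13 CPM in Control and 205 ± 37.2 in L1L2cKO, with overlap between the groups.

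Most of the genes that rose were pseudogenes of expressed genes, and in several cases the parent had a lower mean. The clearest pair was Tdg, which encodes thymine DNA glycosylase, a base excision repair enzyme, and its processed pseudogene Gm9855. Tdg was at 30.4, 32.5 and 45.8 CPM in Control and 10.2, 11.1 and 11.98 in L1L2cKO (log2 change -1.71 ± 0.27, adjusted p = 0.023). Gm9855 was at 0, 0.255 and 0.161 CPM in Control and 18.3, 15.3 and 19.5 in L1L2cKO (log2 change 6.67 ± 0.54, adjusted p = 0.00026). Reads were thus counted at Tdg in Control and at both loci in L1L2cKO. Of the words of Gm9855, 76.5% also occur in Tdg, and the sum of both was 36.4 ± 8.38 CPM in Control and 28.8 ± 2.54 in L1L2cKO. The ranges overlapped only through L1L2cKO 3 (31.4) and Control 1 (30.4). The fall of Tdg is therefore uncertain as a change of that gene's own transcript. Its call was also lost without Control 2, Control 3, p53cKO 2 or any single L1L2cKO library (adjusted p up to 0.17), while that of Gm9855 held in every alternative run.

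A second pair was Fabp5, the epidermal fatty acid binding protein gene, and Gm6166. Gm6166 was at 4.41, 5.697 and 9.35 CPM in Control and 205, 184 and 249 in L1L2cKO (log2 change 4.99 ± 0.45, adjusted p = 0.00061). Fabp5 was at 769, 813 and 1109 CPM and 450.5, 386 and 529.8 CPM, lower in all 3 L1L2cKO libraries but not called (log2 change -0.98 ± 0.19, adjusted p = 0.082). In L1L2cKO, then, a sizeable part of the counts of this pair sat on the pseudogene. Gm6166 shares 51.1% of its words with Fabp5, and the sum of the pair was 904 ± 187 CPM in Control and 668 ± 105 in L1L2cKO. The groups overlapped only through L1L2cKO 3 (779) and Control 1 (773).

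The other pseudogenes that rose were Gm13092, Gm15920, Gm1821, Gm15264, Tdpx-ps1 and Gm8276, which share 82.0%, 78.8%, 79.6%, 50.3%, 25.5% and 10.3% of their words with Snrpf, Ndufa12, Ubb, Tuft1, Prdx2 and Pabpc1. Their log2 changes were 2.49, 1.86, 2.57, 2.68, 4.25 and 5.29. Snrpf, a spliceosomal Sm protein gene, was at 24.3 ± 3.57 CPM in Control and 15.6 ± 2.50004 in L1L2cKO without overlap, and Ndufa12, a complex I subunit gene, at 28.5 ± 5.07 and 19.99 ± 1.104 without overlap, both uncalled (adjusted p = 0.56 and 0.4). Of 11 sums of a called gene with the gene or genes it shares words with, 10 overlapped between the groups, where 9.8% of all genes tested did not. The sum of Prdx2 and Tdpx-ps1 was lower in L1L2cKO, at 293 ± 12.7 against 334 ± 15.4 CPM. Sums made up mostly of the partner say little about the called gene: in L1L2cKO Gm8276 was at 5.59 CPM and Pabpc1 at 674.6. Over all 33 called genes 14 (42.4%) shared more than 20% of their words with another gene, against 7.18% of the genes tested. Without Control 2 the calls of Gm8276, Gm15920, Gm1821, Gm15264 and Tdpx-ps1 were all lost, the last 3 also without other single libraries (adjusted p up to 0.35), while Gm13092 stayed called in every alternative run. With only the groups compared those of Gm15920, Gm1821 and Gm15264 were lost. The part that read assignment has in these changes was not tested.

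**Figure D2:**
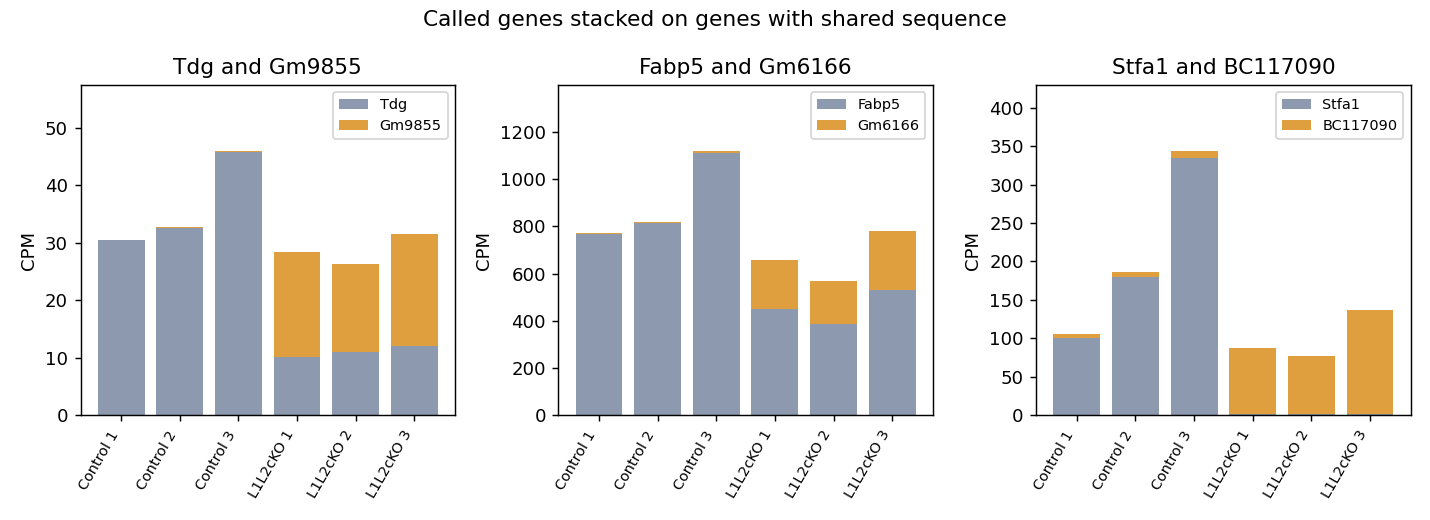
Levels in CPM in each Control and L1L2cKO library for 3 pairs with shared sequence, stacked: Tdg with Gm9855, Fabp5 with Gm6166, and Stfa1 with BC117090. In the Tdg and Fabp5 pairs the stacked total of L1L2cKO overlaps that of Control, while the pseudogene share is visible only in the L1L2cKO bars, and in the third pair the bars change from Stfa1 to BC117090.

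Among the called genes that share few words with others, 5 encode enzymes of glycan, lipid or nucleotide metabolism. Enpp1, an ectoenzyme that makes pyrophosphate from extracellular nucleotides, was at 13.1, 10.4 and 6.21 CPM in Control and 35.5, 86.3 and 48.2 in L1L2cKO (log2 change 2.54 ± 0.38, adjusted p = 0.021). Its L1L2cKO libraries were widely spread but all above Control. Dera, which splits deoxyribose phosphate in nucleoside breakdown, was at 17.5, 19.98 and 22.3 CPM in Control and 37.2, 37.6 and 38.1 in L1L2cKO (log2 change 0.91 ± 0.11, adjusted p = 0.0034). Mgat5, a Golgi enzyme that adds branches to N-glycans, was at 58.2, 56.03 and 68.03 CPM and 126, 117 and 105 CPM (log2 change 0.93 ± 0.14, adjusted p = 0.021). These last 2 changes were close to a doubling, with little spread within either group. The call of Enpp1 was lost without Control 2, Control 3 or L1L2cKO 2 (adjusted p up to 0.14 over the alternatives), and that of Mgat5 without Control 1, Control 2, L1L2cKO 1 or L1L2cKO 2 (up to 0.17). Both calls were also lost in edgeR with only the groups compared (adjusted p = 0.081 for Enpp1 and 0.053 for Mgat5).

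St6galnac2, a sialyltransferase of O-glycans, was at 20.8, 19.3 and 23.3 CPM in Control and 8.79, 9.48 and 7.93 in L1L2cKO (log2 change -1.27 ± 0.14, adjusted p = 0.0013). Acer2, the Golgi alkaline ceramidase that breaks ceramide down to sphingosine, was at 34.2, 39.6 and 38.7 CPM in Control and 12.1, 11.8 and 15.1 in L1L2cKO (log2 change -1.53 ± 0.19, adjusted p = 0.0054). Both were low in all 3 L1L2cKO libraries with narrow ranges. Rab3b, a small GTPase of regulated secretion, was at 3.76, 5.36 and 5.08 CPM and 1.03, 0.875 and 0.881 CPM (log2 change -2.34 ± 0.35, adjusted p = 0.02). A pair of transcripts that overlap Rab3b on the map, the pseudogene Gm12736 and the antisense transcript 8030443G20Rik, had 0 counts in all L1L2cKO libraries and were at least 31.0-fold and 24.9-fold lower. The strand setting of the counting is not given in the sources used here, and reads of Rab3b and of its antisense transcript cannot be told apart without it. The call of Rab3b was lost without Control 2, Control 3 or any single L1L2cKO library (adjusted p up to 0.12). That of Gm12736 was lost in 6 of the 20 alternatives (up to 0.11), among them without Control 2, p53cKO 2 or any single L1L2cKO library, and that of 8030443G20Rik in 14 (up to 0.17), among them without any single Control or L1L2cKO library, with the replicate block and with sex as a term. The calls of St6galnac2 and Acer2 held in every alternative run.

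Tmem177, which encodes a mitochondrial inner membrane protein, was at 81.3, 60.1 and 43.8 CPM in Control and 18.1, 18.1 and 18.6 in L1L2cKO (log2 change -1.75 ± 0.30, adjusted p = 0.044). The controls were spread and the L1L2cKO libraries nearly identical. Mab21l3 fell by the least of the called genes, from 27.2 ± 1.26 to 16.7 ± 0.4797 CPM (log2 change -0.70 ± 0.12, adjusted p = 0.036). Smco3, a predicted single-pass membrane protein gene, had 46 counts over the Control libraries and 2 over the L1L2cKO libraries, a ratio of 30.1 (exact 95% interval 7.87 to 256). Catsperg2, an auxiliary subunit gene of the sperm calcium channel, had 1 count in Control and 87 in L1L2cKO, a ratio of 66.5 (11.6 to 2656), and shares 44.1% of its words with the neighbouring Catsperg1, which was at 21.4 ± 8.47 and 25.4 ± 5.299 CPM. These 2 rest on few counts in the lower group. Calls in this paragraph were sensitive to single libraries: those of Tmem177 (adjusted p up to 0.24), Mab21l3 (up to 0.24) and Smco3 (up to 0.14) were lost without Control 2 or any single L1L2cKO library, and that of Catsperg2 (up to 0.17) without any single Control library or p53cKO 2. Tmem177 and Mab21l3 also lost it without Control 1, p53cKO 2 or L1L2p53cKO 3, Tmem177 without L1L2p53cKO 2, Mab21l3 without Control 3 or p53cKO 1, and Smco3 without Control 3. Catsperg2 and Mab21l3 lost it with only the groups compared too. With the replicate block Catsperg2, Mab21l3 and Smco3 lost it, and Mab21l3 also with sex as a term or no filter.

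The called genes were unevenly placed along the genome. Chromosome 4 held 10 of the 33 (30.3%) and 6.51% of the genes tested: Skint3, Skint4, Skint6, Skint9, Rab3b, Gm12736, 8030443G20Rik, Acer2, Gm5860 and Gm13092. Acer2 and the long non-coding gene Gm5860 lay 4.77 Mb apart and both fell, with a log2 change of -3.20 for Gm5860. On chromosome 11, St6galnac2 lay 0.820 Mb from Llgl2, and the processed transcript 2610507I01Rik, which fell with a log2 change of -3.05, lay 1.497 Mb from Llgl1. Within 5 Mb of Llgl2, 1 of 165 tested genes besides the target was called, and within 5 Mb of Llgl1, 1 of 109, where 0.226% of all genes tested were. An unadjusted edgeR p below 0.05 was held by 14 of these 165 (8.48%) and 12 of these 109 (11%), where 6.31% of all genes tested had it. Within 1 Mb it was held by 8 of 69 for Llgl2 (11.6%) and 0 of 38 for Llgl1. Dera and Smco3 on chromosome 6 were 0.919 Mb apart and went in opposite directions, and Mgat5 and Tmem177 on chromosome 1 were 7.29 Mb apart and also did. The call of Gm5860 was lost without Control 2, Control 3 or any single L1L2cKO library (adjusted p up to 0.11), and that of 2610507I01Rik without those, without p53cKO 2 or L1L2p53cKO 3, and with only the groups compared (up to 0.18). The windows were chosen after the positions had been seen, and the origin of this placement was not tested.

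The same genes were then read in the Trp53 heterozygous background, where L1L2p53cKO against p53cKO uses none of the 6 libraries above. All 33 genes had the same sign there and groups that did not overlap, where 20.4% of all genes tested did not overlap. Of the 33, 30 were called in the same direction (90.9% of the 33 and 15.2% of the 198 genes called in that background, where 1.36% of genes tested were called). Both comparisons share the fit and the floxed Llgl1/2 alleles. Skint3, Skint4, Skint6 and Skint9 were called lower, and Stfa1 and BC117090 had log2 changes of -6.77 ± 0.51 and 4.31 ± 0.36. Enzyme genes had log2 changes of 1.19 for Dera, 0.66 for Mgat5, -1.17 for St6galnac2 and -1.49 for Acer2, each called. The 3 that were not called there were Tdg (log2 change -1.21, adjusted p = 0.052), Mab21l3 (-0.50, adjusted p = 0.062) and Enpp1.

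**Figure D3:**
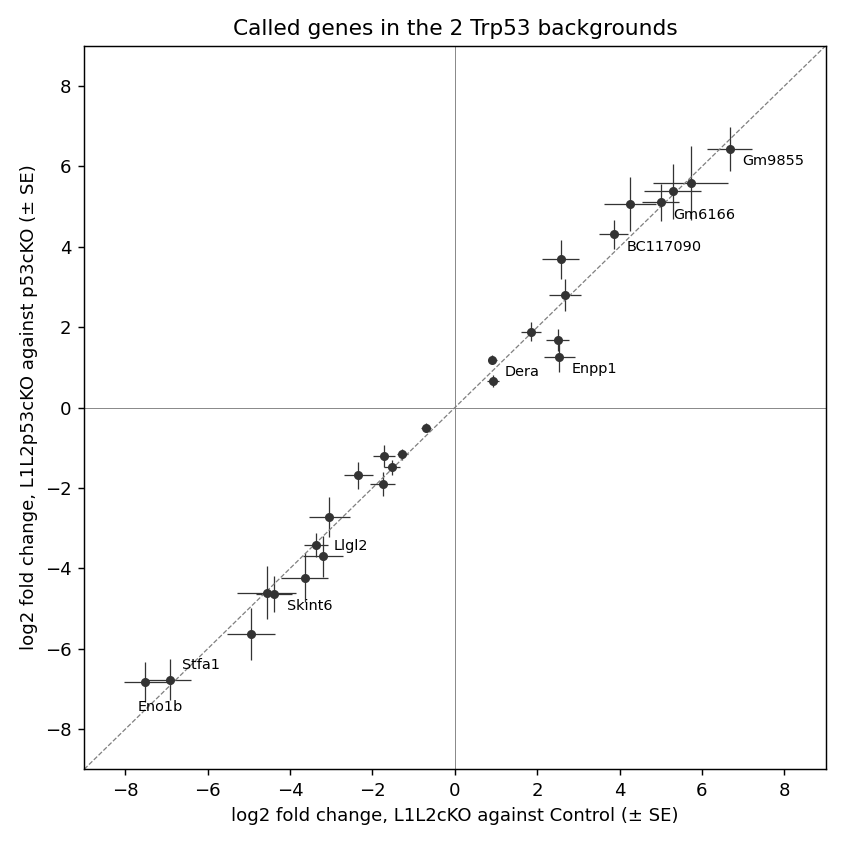
Log2 fold change (± SE) of the called genes with reads in all 4 groups, L1L2cKO against Control on the horizontal axis and L1L2p53cKO against p53cKO on the vertical axis, with the line of equality dashed. Points follow the line in both directions, from Eno1b at -7.52 and -6.84 to Gm9855 at 6.67 and 6.44, and Enpp1 lies below it at 2.54 and 1.26.

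Of the 33, Enpp1 had the smallest p for a difference between the backgrounds. It was at 12.8, 15.8 and 8.96 CPM in p53cKO and 39.8, 24.1 and 25.6 in L1L2p53cKO, a log2 change of 1.26 ± 0.37 (adjusted p = 0.12). The difference between the 2 changes had an unadjusted p of 0.0312 and an adjusted p of 1. Over all genes the test of that difference called 0 by edgeR and 0 by DESeq2, with 428 at an unadjusted edgeR p below 0.05 (2.94%). Tests of the difference therefore identify no gene for which the Llgl1/2 genotype acted differently with 1 Trp53 allele floxed.

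Of the polarity machinery around Lgl, few genes came near the threshold. In the Scribble module (Scrib, the Dlg genes and their partners) 9 genes were tested, Llgl2 was called lower and the median log2 change was 0.06. Dlg5, the uncalled gene of this module with the smallest p after Llgl1, was at 55.7 ± 6.48 and 66.2 ± 5.93 CPM (log2 change 0.25, adjusted p = 0.93). Of 17 genes of the Par and Crumbs complexes 0 were called, with a median of -0.03 and a range of -0.27 to 0.24. Mark3, a Par-1 family kinase, had the smallest p in it at 105 ± 5.19 and 92.4 ± 4.27 CPM (adjusted p = 0.82). The 16 partners of Lgl in trafficking and the cytoskeleton had 0 called and a median of 0.02. Of 14 spindle orientation genes 0 were called (median 0.00), and Celsr1, a planar polarity cadherin gene, was at 219 ± 11.1 and 275 ± 21.7 CPM without overlap (adjusted p = 0.6). In the main edgeR fit no gene of these lists other than Llgl2 was called. Without Control 3 and p53cKO 3, 2 of the 16 Lgl partners and Llgl1 were called higher, where 1.61% of genes tested were. For the partners the count was 0 without Control 3 alone. Both libraries had the highest level of the partner list in their groups, so the count without them is no test of that list.

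Adhesion lists had medians near that of all genes. Among 9 adherens junction genes 7 were higher, 0 were called, and the median was 0.11. Cdh1, the E-cadherin gene, was at 683, 749 and 762 CPM in Control and 934, 848 and 936 in L1L2cKO, higher without overlap but uncalled (log2 change 0.31 ± 0.13, adjusted p = 0.73), and Cdh3, the P-cadherin gene, had overlapping groups and a log2 change of 0.46. Tight junction genes (0 of 15 called, median 0.05) included Cgn at -0.41 and Tjp1 at 0.29, and desmosome genes (0 of 16, median -0.03) included Dsg2 at -0.26. Among 17 hemidesmosome and basement membrane genes, 0 were called and the median was 0.12. Lama5, a laminin gene, was at 462 ± 47.97 and 701 ± 162 CPM, higher without overlap but uncalled (adjusted p = 0.55). The tight junction, desmosome and hemidesmosome medians changed sign in some of the alternative fits, and without Control 3 they were -0.14, -0.01 and -0.04.

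**Figure D4:**
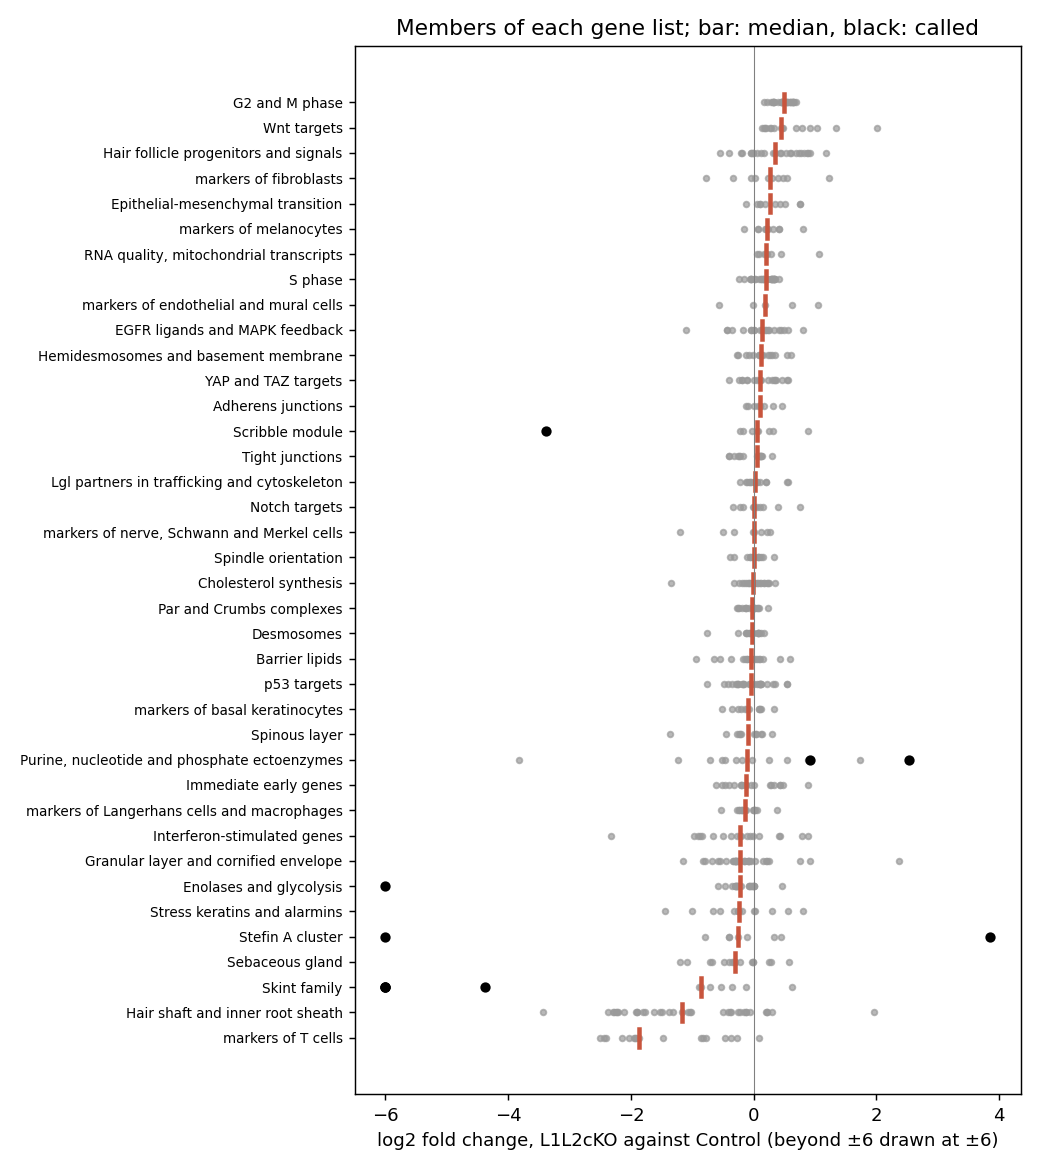
Log2 fold change of every tested member of each gene list with at least 5 tested members, L1L2cKO against Control, with the median of the list as a red bar and called genes in black. Medians run from -1.86 for T cell markers to 0.50 for G2 and M phase genes, and the black points belong to the Scribble module, Skint, stefin A, enolase and glycolysis, and nucleotide enzyme lists. The symbol Flg is drawn as a single point.

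The layers of the epidermis could be followed by their own transcripts, though in whole tissue fewer cells of a type and less RNA per cell cannot be told apart. Basal keratinocyte markers had 0 of 12 called and a median of -0.09. Krt14 was at 5722, 5378 and 4553 CPM in Control and 3511, 3839.9 and 4869 in L1L2cKO with overlap (log2 change -0.36, adjusted p = 0.8), and Trp63, which encodes the p63 regulator of basal cells, had a log2 change of 0.33 (adjusted p = 0.85). Spinous genes also had 0 of 12 called and a median of -0.09. Krt77, a suprabasal keratin gene, was at 231, 204 and 92.5 CPM and 52.7, 79.6 and 71.8 CPM, lower in every L1L2cKO library but uncalled (log2 change -1.37 ± 0.43, adjusted p = 0.54). Control 3 lay nearer to the L1L2cKO libraries than to the other controls. Without Control 3 and p53cKO 3, a library that stands apart in the same way, Krt77 was called (adjusted p = 0.0046). It was called in none of the other alternatives. Both libraries were chosen with earlier results of these data known, so that call is no test of the gene.

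In the granular layer and cornified envelope list 29 of 38 tested identifiers were lower, with a median of -0.22 and 0 called. Ivl, the involucrin gene, was at 669 ± 229 and 377 ± 102 CPM with overlap (log2 change -0.83, adjusted p = 0.61). Sprr2d, a small proline-rich envelope protein gene, had higher values, at 17.2, 12.3 and 5.803 CPM in Control and 131, 17.3 and 30.7 in L1L2cKO (adjusted p = 0.69), with L1L2cKO 1 far above the rest. The symbol Flg, for filaggrin, is carried by 5 identifiers in the table, and each tested one enters the count and median of this list separately. The one with the most counts was at 2608 ± 766 and 1969 ± 681 CPM with overlap, and another was at 61.7 ± 6.83 and 184 ± 36.7 CPM without overlap (log2 change 1.58, adjusted p = 0.062). Barrier lipid genes had 0 of 20 called, with Sdr9c7, a dehydrogenase of acylceramide processing, at 259.98 ± 27.02 and 178 ± 30.3 CPM (adjusted p = 0.61) and Lipn, a lipase gene, at a log2 change of -0.94. Without Control 1 the median of the granular list was 0.09, so its sign rests on that library.

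Hair shaft and inner root sheath genes were lower in most cases, but none passed the test and in none did the groups separate. Of 37 tested, 32 were lower, 12 had an unadjusted p below 0.05 (6.31% of all genes tested had), and the median was -1.16. Krt33b, a type I hair keratin gene, was at 43.8, 43.4 and 6.53 CPM in Control and 2.54, 11.4 and 5.72 in L1L2cKO (log2 change -2.25 ± 0.78, adjusted p = 0.61). Krtap6-1, which encodes a keratin-associated protein of the shaft, was at 19.8, 15.6 and 0.725 CPM and 0.687, 1.53 and 1.06 CPM (log2 change -3.43 ± 1.27, adjusted p = 0.66). In both genes Control 3 sat within the L1L2cKO range. The list level, as mean log2 CPM of its members relative to the 12 libraries, was 1.70 and 1.53 in Control 1 and Control 2, -0.10 in Control 3, and -0.38, 0.88 and -0.52 in L1L2cKO. Leaving out Control 3 and p53cKO 3 gave 3 called members, all lower, where 1.19% of genes tested were called lower. Both libraries were chosen with earlier results of these data known and had the lowest level of this list in their groups, so that count is no test of the list. In the Trp53 heterozygous background the median was -3.87 with 17 of 37 called lower, where 0.919% of genes tested were called lower. Of the 37, 21 had an unadjusted p below 0.05 for the difference between backgrounds, where 2.94% of all genes tested had, although none passed after adjustment over all genes.

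Of 17 sebaceous gland genes tested, 14 were lower, 0 were called, and the median was -0.31. Plin2, a lipid droplet coat protein gene, was at 52.4 ± 14.9 and 32.5 ± 6.14 CPM (adjusted p = 0.6) and Awat2, a wax synthase gene, at 8.601 ± 4.63 and 3.99 ± 0.981 (adjusted p = 0.61), both with overlap. The list level was 0.60 and 0.48 in Control 1 and Control 2, -0.09 in Control 3 and -0.04, 0.31 and -0.16 in L1L2cKO, so Control 3 sat among the L1L2cKO libraries. Without Control 3 the median was -0.54 with 0 called, and without Control 3 and p53cKO 3 it was -0.54 with 1 called lower. Both libraries had the lowest level of this list in their groups, so the count without them is no test of the list. Over the other alternatives the median ran from -0.62 (without L1L2cKO 2) to -0.14 (without L1L2cKO 1). In the Trp53 heterozygous background the median was -1.37 and 8 were called lower, again where 0.919% of genes tested were. As for the hair list, 8 of the 17 had an unadjusted p below 0.05 for the difference between backgrounds, where 2.94% of all genes tested had, and none passed after adjustment.

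Progenitor and signalling genes of the follicle had higher values in most cases. Of 27 tested, 19 were higher and 7 of them without overlap, where 4.49% of all genes tested were higher without overlap. The median was 0.36, 0 were called, and 8 had an unadjusted p below 0.05, where 6.31% of all genes tested had. Bmp2, a ligand made by the follicle epithelium, was at 51.998, 43.3 and 49.01 CPM in Control and 92.004, 62.9 and 100.3 in L1L2cKO (log2 change 0.82 ± 0.16, adjusted p = 0.1). Lgr6, an R-spondin receptor of upper follicle progenitors, was at 178, 205 and 196 CPM and 319, 314 and 242 CPM (log2 change 0.59 ± 0.14, adjusted p = 0.18). Both were higher in all 3 L1L2cKO libraries. The list level was -0.45 and -0.19 in Control 1 and Control 2, 0.10 in Control 3 and 0.27, 0.31 and 0.083 in L1L2cKO, so that Control 3 lay within the L1L2cKO range. Without Control 3 and p53cKO 3 the median was 0.49 and 4 were called higher, where 1.61% of genes tested were. The count was 0 without Control 3 alone. Both libraries had the highest level of this list in their groups, so the count without them is no test of the list. Smo, the Hedgehog signal transducer gene, and Wnt10b, a Wnt ligand gene, also did not overlap, with log2 changes of 0.35 and 0.31 (adjusted p = 0.54 and 0.55). DESeq2 called Bmp2 and Lgr6.

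All 16 Wnt target genes tested were higher, 6 without overlap, where 4.49% of all genes tested were higher without overlap. The median was 0.45 with 0 called, and 5 had an unadjusted p below 0.05, where 6.31% of all genes tested had. Sp5, a transcription factor gene induced by Wnt, was at 1.47, 3.23 and 3.95 CPM in Control and 7.08, 7.51 and 8.19 in L1L2cKO (log2 change 1.35 ± 0.39, adjusted p = 0.44). Apcdd1, a Wnt inhibitor of the follicle, was at 245, 259 and 249.7 and 418, 331 and 306 CPM (adjusted p = 0.44). Both were higher in every L1L2cKO library. Nkd1, a feedback inhibitor gene, and Lef1, which encodes the nuclear partner of beta-catenin, had log2 changes of 0.79 and 0.69, also without overlap. The list level was -0.57, -0.24 and 0.07 in Control 1 to 3 and 0.23 to 0.53 in L1L2cKO, so that Control 3 was the nearest control. Without Control 3 and p53cKO 3, 4 of the 16 were called higher, where 1.61% of genes tested were. The count was 0 without Control 3 alone. Both libraries had the highest level of this list in their groups, so the count without them is no test of the list. In the Trp53 heterozygous background the median was 0.40 and 1 was called higher, where 0.439% of genes tested were.

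Of the other signalling lists, those of YAP and TAZ, Notch, EGFR and p53 stayed near the median of all genes. YAP and TAZ targets (median 0.11, 0 of 19 called), Notch targets (0.01, 0 of 12) and EGFR ligands with MAPK feedback genes (0.14, 0 of 21) were each led by an uncalled gene. These were Arhgef17 at 0.30, the Notch feedback gene Nrarp at -0.33 and the EGFR ligand gene Epgn at -1.10. The 28 targets of p53 had 13 higher, 15 lower and 0 called, with a median of -0.05, and Aen, a p53-induced nuclease gene, was lower without overlap at 56.8 ± 4.45 and 40.5 ± 4.77 CPM (adjusted p = 0.54). The list of the epithelial-mesenchymal transition had a higher median of 0.27, with 0 of 10 genes called. Of its genes 9 were higher, 3 of them without overlap, where 4.49% of all genes tested were higher without overlap. Of these Sparc, a matrix glycoprotein gene, was at 98.3, 123 and 113 CPM in Control and 214, 152 and 199 in L1L2cKO (adjusted p = 0.15), and Mmp2, a gelatinase gene, was at 26.3, 24.7 and 25.8 and 39.4, 33.3 and 37.2 (adjusted p = 0.18). Both were higher without overlap and both were called by DESeq2. Fibroblasts also express them, and the fibroblast markers Col5a1 (0.55) and Fbln1 (0.39) were higher without overlap, while Col1a1 overlapped at 2.43 ± 1.55 and 1.98 ± 0.423 CPM. The part of those cells in the result was not tested.

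In the cell cycle lists Control 3 differed from the other controls. All 30 G2 and M phase genes were higher, with a median of 0.50, 0 called and 0 without overlap. Cenpa, a centromeric histone gene, was at 21.1, 25.3 and 61.3 CPM in Control and 66.2, 54.1 and 48.4 in L1L2cKO (log2 change 0.64, adjusted p = 0.94). Cdc20, an activator of the anaphase-promoting complex, was at 23.1, 20.3 and 62.9 and 65.3, 48.2 and 53.1 CPM (log2 change 0.64, adjusted p = 0.95). Control 1 and Control 2 were low, and Control 3 was as high as the L1L2cKO libraries. The list level was -1.51 and -1.03 in Control 1 and Control 2, 0.85 in Control 3 and 0.30 to 0.33 in L1L2cKO. Without Control 3 the median was 1.59 with 0 called. Without Control 3 and p53cKO 3 it was 1.58 with 29 of 30 called higher, where 1.61% of genes tested were. Both libraries were chosen with earlier results of these data known and had the highest level of this list in their groups (1.07 in p53cKO 3). The counts without them are therefore no test of the list. S phase genes gave a median of 0.20 with 24 of 30 higher and 0 called. When both libraries were left out it was 0.86 with 5 called higher, where again 1.61% of genes tested were. Without Control 1 the S phase median was -0.11.

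The number of called genes also depended on these libraries. Without Control 3 and p53cKO 3, 413 of 14761 genes were called (2.80%), 238 higher and 175 lower, and all 33 were among them. Without Control 3 alone the count was 28 of 14848 (0.189%), of which 20 were among the 33.

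**Figure D5:**
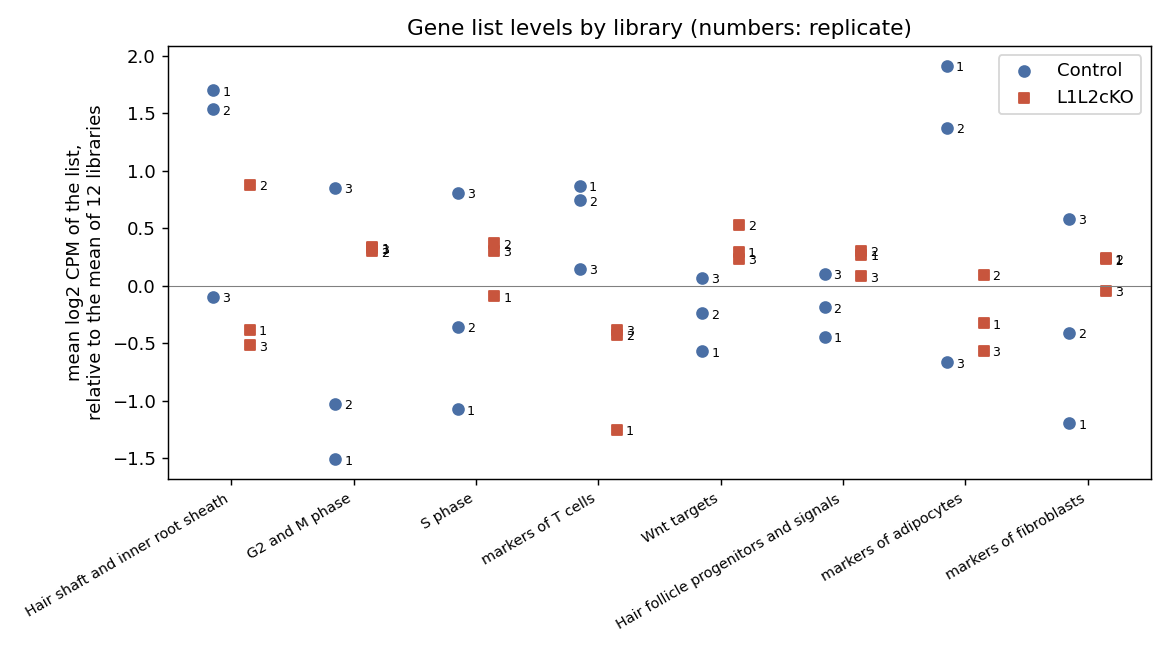
Level of 8 gene lists in each Control (blue circles) and L1L2cKO (red squares) library, as the mean log2 CPM of the list's tested members relative to the mean of the 12 libraries, with replicate numbers beside the points. Control 3 lies among or beyond the L1L2cKO libraries for the hair shaft, G2 and M phase, S phase, follicle progenitor, adipocyte and fibroblast lists, and below them but nearest to them for Wnt targets.

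T cell markers had lower values in L1L2cKO in most cases, but none passed the test. Of 17 markers tested 16 were lower, 9 without overlap, where 5.31% of all genes tested were lower without overlap. The median was -1.86, 0 were called, and 8 had an unadjusted p below 0.05, where 6.31% of all genes tested had. Cd3g, a chain of the T cell receptor complex, was at 9.32, 9.27 and 7.01 CPM in Control and 0.687, 2.114 and 2.03 in L1L2cKO (log2 change -2.41 ± 0.74, adjusted p = 0.49). Il2rb, an interleukin receptor chain gene of T and NK cells, was at 4.25, 5.53 and 3.71 and 0.344, 0.948 and 1.23 CPM (log2 change -2.43 ± 0.71, adjusted p = 0.46). In both genes every L1L2cKO library, L1L2cKO 1 most of all, was below every control. The gamma delta T cell receptor genes Tcrg-C1, Tcrg-V5 and Trdc were lower without overlap too, with log2 changes of -2.51, -1.95 and -2.03, whereas Lck (-0.27), Trbc2 (-0.36) and the pan-leukocyte gene Ptprc (-0.46) overlapped. The list level was 0.87, 0.74 and 0.15 in Control 1 to 3 and -1.25, -0.43 and -0.38 in L1L2cKO. Summed over the list the groups overlapped, at 314, 395 and 324 CPM in Control and 303, 286 and 380 in L1L2cKO. Most of that sum was Rora, a nuclear receptor gene that many other cell types also express, at 228, 312 and 265 CPM and 273, 250 and 330 CPM. Trac, of the alpha beta receptor, had at most 2 counts in any of the 6 libraries and could not be tested. In the Trp53 heterozygous background the list had a median of -1.43 and 0 called.

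Other cell types showed no called marker. Langerhans cell and macrophage markers had a median of -0.13 over 16 genes, and the Langerhans marker Cd207 had 0 to 7 counts per library. Of 11 melanocyte markers 10 were higher (median 0.23), and of 10 fibroblast markers 7 were (median 0.27). The 5 endothelial and mural markers tested had a median of 0.19. These medians rested on single libraries. Without Control 3 the fibroblast median was 0.86 with 9 of 10 higher, and without Control 1 it was -0.05. The melanocyte median ran from -0.04 (without L1L2cKO 2) to 0.40 (without L1L2cKO 3), the endothelial and mural one from -0.83 (without L1L2cKO 2) to 0.64 (without Control 3), and the Langerhans cell and macrophage one from -0.30 (without Control 3) to 0.02 (without L1L2cKO 2). The 4 adipocyte markers tested were all lower, with a median of -1.48. Of these, Retn (20.8, 5.95 and 0.967 CPM in Control, 1.92, 1.24 and 0.352 in L1L2cKO) and Fabp4 (8.34, 7.23 and 0.806 and 0.756, 2.26 and 1.32) were high in Control 1 and Control 2 and as low in Control 3 as in L1L2cKO. The markers of muscle, nerve and Schwann cells and erythroid cells had medians of -0.20 (2 genes), 0.00 (8 genes) and -0.94 (2 genes).

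In the list of purine, nucleotide and phosphate ectoenzymes 2 of 14 were called, Dera and Enpp1, both higher, where 0.0892% of all genes tested were called higher. The median of the list was -0.11. As the list was chosen with earlier results of these data known, the count is no test of it. Upp1, a uridine phosphorylase gene of the same list, was at 9.81, 5.697 and 1.37 CPM in Control and 0.137, 0.802 and 0.176 in L1L2cKO, lower without overlap but uncalled (log2 change -3.83 ± 0.83, adjusted p = 0.15), with its controls themselves spread over several fold. Enpp5, another member of the Enpp family, was at 1.73 ± 0.226 and 0.738 ± 0.103 CPM (adjusted p = 0.65). Of 22 glycolysis genes 18 were lower (median -0.23), and apart from Eno1b 0 were called. Aldoa, the aldolase gene, was at 496 ± 91.01 and 358 ± 15.7 CPM without overlap (adjusted p = 0.64) and Pfkp, a phosphofructokinase gene, at 67.6 ± 17.99 and 45.05 ± 8.91 with overlap.

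Cholesterol synthesis genes had a median of -0.01 (0 of 24 called), with the regulator gene Srebf2 at 0.35 without overlap. Stress keratins and alarmins had a median of -0.25 (0 of 14), with S100a7a at -1.44 and Krt6a, a keratin of wounded epidermis, at -1.01, both overlapping. Interferon-stimulated genes had a median of -0.22 (0 of 19), with Cxcl10 at -2.32 and Bst2 at -0.90, both overlapping. Of RNA quality measures, the 8 of 13 mitochondrial transcripts that were tested were all higher with a median of 0.21 and 0 called. The untested ones, mt-Nd4l, mt-Co2, mt-Co3, mt-Atp6 and mt-Atp8, had 0 or 1 counts in each library, and the reason was not tested. The 19 immediate early genes had a median of -0.12 with 0 called. Apart from the hair shaft, follicle progenitor, Wnt target and T cell lists, no list without a called gene had more than 3 members at an unadjusted p below 0.05.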

How the data were processed

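Poly(A) libraries were made with a stranded mRNA kit from total RNA, per the labels' protocols. The submitters' processing notes name STAR, featureCounts 1.6.4, DESeq2 2.11.40.8 and GRCm38. Annotation release, strand setting and treatment of reads with several matches are not given in the sources used here. The deposited table holds raw counts per gene and library, unnormalized, and 0 of its sample columns were left unused.

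For the present tests edgeR 4.0.16 (R 4.3.3) was run on these counts: filterByExpr over the 4 groups (minimum count 10), TMM scaling, and a robust quasi-likelihood model of all 12 libraries (group means, 8 residual degrees of freedom). P-values were adjusted by Benjamini-Hochberg over the 14582 genes tested. SE is the log2 change divided by the square root of F. Bounds and intervals cover counting error only, and reads were not counted as unique molecules. Positions, biotypes and shared 50-base words came from GENCODE M21 transcripts, which matched 14532 of the genes tested. Word sharing measures sequence, not the authors' read assignment. The 41 gene lists (758 genes, 735 in the table, 630 tested), the rule for named genes and the libraries that stand apart were chosen with earlier results of these data known. Named were Llgl1, Llgl2, Trp53, the called genes without a predicted name, Skint and stefin genes, and from each list its called members or the 2 to 4 with the smallest p and defining markers. Predicted genes, pseudogene partners, the Flg identifier with most counts, and Lck, Trbc2, Ptprc, Trdc and Tcrg-V5 were named after their values were seen. Alternatives were DESeq2 1.42.0, median-of-ratios scaling, other filters, only the groups compared, a replicate or sex term, and libraries left out. The model was tested on simulated counts.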

Additional observations from a re-analysis of the deposited data

How the results depend on the processing

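The count of genes called in L1L2cKO against Control was 33. It was 114 by DESeq2 and 413 without Control 3 and p53cKO 3, and it ran from 15 (without Control 2) to 42 (without p53cKO 3) over the 12 fits that each left out a library, with 19 without L1L2cKO 1. Median-of-ratios scaling gave 33, at least 1 CPM in 3 libraries 33, no filter 41 (21 higher, 20 lower), only the groups compared 30, and sex as a term 41. With only the groups compared 21 of the 33 stayed called, without a filter 32 and with sex as a term 30. In L1L2p53cKO against p53cKO the count of 198 became 722 by DESeq2, 117 with only the groups compared and 1088 without both libraries that stand apart, and 24 to 322 when a library was left out. Genes called in both comparisons numbered 30, against 83 by DESeq2, 17 with only the groups compared, 351 without both libraries, and 15 to 35 when a library was left out. The interaction gave 0 calls in every alternative in which it was run. With the replicate block the counts were 31, 376 and 30. Same-numbered libraries of Control and L1L2cKO had correlated deviations of 0.117, 0.0687 and 0.129 across genes, each best with its own number but not all above 0.1, so the numbers were not taken as pairs.

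Calls kept in all 20 alternatives were those of 14 of the 33 genes: Llgl2, Skint3, Skint4, Skint6, Skint9, Stfa1, BC117090, Eno1b, St6galnac2, Acer2, Gm9855, Gm6166, Gm13092 and RP23-349J3.8. Dera lost its call with only the groups compared (adjusted p = 0.081) and Gm8276 without Control 2. Gm1821 and Mab21l3 each lost it in 13 alternatives, 8030443G20Rik in 14, and the other 14 in 2 to 8, with adjusted p up to 0.35 over all these genes. Llgl1 was called by DESeq2, without a filter, without Control 1, and without both libraries. The log2 fold change of Trp53 changed sign with sex as a term (0.0707) and ran from -0.102 (without Control 2) to 0.0247 (without Control 1) when a library was left out, with 0.00981 without L1L2cKO 3. The log2 fold change of Skint5 was 0.0169 without both libraries that stand apart and ran from -0.776 to 0.0225 (without Control 3). The log2 fold change of Skint11 ran from -0.881 to 0.145 (without Control 2). The cause of these shifts was not tested. With 3 mice a group, small changes and genes under 1 CPM could not be resolved.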
